A study of Mus musculus with 12 samples.

Results

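Interferon response genes are genes that cells switch on when interferons, the cytokines of antiviral defence, bind their receptors. A list of 37 such genes was matched by exact symbol to the probe annotation, and 35 of them were found among the 18194 genes tested. Isg15 and Ifi44 had no probe set naming them alone and are not described. The RNA came from the gastrocnemius, a calf muscle, of mice of mixed C57Bl/6N/6J/129 background, and each of 4 groups had 3 arrays. The groups were wild-type mice of 10 weeks (young wild-type), knock-out mice of 10 weeks (young knock-out), wild-type mice of 24 months (old wild-type) and knock-out mice of 24 months (old knock-out). The knock-out removes PGC-1alpha, a coactivator of mitochondrial gene expression encoded by Ppargc1a, from muscle by a Cre recombinase under the myogenin promoter, so cells of the tissue that never used this promoter should keep the gene. The labels do not say whether wild-type mice carried the Cre, how many animals each array represents or whether the arrays of a group came from separate animals. The p-values therefore speak only to how these arrays varied, and part of that variation may be technical.

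Type I interferons signal through the receptor chains of Ifnar1 and Ifnar2 and the kinases Jak1 and Tyk2 to a complex that includes STAT2 and IRF9 and binds the interferon-stimulated response element (ISRE) in promoters. Interferon gamma acts through Jak1 and Jak2 on promoters that hold the gamma-activated site. The products sense foreign RNA and DNA, block viral translation and assembly, attack vacuoles that hold microbes and load peptides onto MHC class I molecules. In muscle, as in other tissues, fibres, vessel cells and immune cells can all express these genes, and in a whole-muscle extract a change in the number of cells of a type and a change in RNA per cell cannot be told apart.

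Promoters of the members were read from the RefSeq table (GRCm38.p6), which held 23 of the 35 measured members in windows from 250 bases before to 50 bases after the transcription start. Both strands were searched for the ISRE core, which is TTTC, any 2 bases and TTTC again (GAAA, any 2 bases and GAAA on the other strand), and for the gamma-activated site TTCNNNGAA. The ISRE core was in a window of 12 of the 23 members (52.2%), beside 3.99% of the 27025 genes of the table. The gamma-activated site was in 7 of the 23 (30.4%), beside 9.55% of all genes. An ISRE core and a gamma-activated site overlapped in Bst2, and in no other member did matches of the 2 different motifs share bases. Irf7, Irf9, Oasl2, Psmb9, Tap1, Tapbp and Xaf1 had neither in the window. Matches are descriptions of the letters, not of binding. The 200 bases before the start are printed for Gbp7 and B2m, which moved with age, for Gbp2 and Gbp3, which lie in the same gene cluster as Gbp7, and for Ifit1, a typical antiviral member that did not pass any test. They read 5′ to 3′ on the plus strand, which is the strand of each gene, and capitals mark the 2 motifs.
Gbp7 (chr3:142530136-142530335): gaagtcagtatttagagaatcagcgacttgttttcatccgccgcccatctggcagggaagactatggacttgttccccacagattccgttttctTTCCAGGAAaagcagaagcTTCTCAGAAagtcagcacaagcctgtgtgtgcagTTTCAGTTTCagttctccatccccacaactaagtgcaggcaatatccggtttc
Gbp2 (chr3:142620463-142620662): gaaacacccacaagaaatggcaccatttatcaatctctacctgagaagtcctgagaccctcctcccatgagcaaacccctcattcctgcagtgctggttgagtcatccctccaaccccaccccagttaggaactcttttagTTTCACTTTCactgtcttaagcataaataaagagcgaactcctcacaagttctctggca
Gbp3 (chr3:142559844-142560043): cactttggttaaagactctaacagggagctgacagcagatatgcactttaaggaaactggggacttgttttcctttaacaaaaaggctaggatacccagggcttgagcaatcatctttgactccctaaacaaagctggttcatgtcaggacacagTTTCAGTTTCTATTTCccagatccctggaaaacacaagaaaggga
B2m (chr2:122147487-122147686): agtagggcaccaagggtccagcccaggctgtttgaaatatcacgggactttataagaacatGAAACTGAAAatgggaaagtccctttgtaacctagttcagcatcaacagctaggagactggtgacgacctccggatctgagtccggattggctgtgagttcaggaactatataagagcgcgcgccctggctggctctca
Ifit1 (chr19:34640689-34640888): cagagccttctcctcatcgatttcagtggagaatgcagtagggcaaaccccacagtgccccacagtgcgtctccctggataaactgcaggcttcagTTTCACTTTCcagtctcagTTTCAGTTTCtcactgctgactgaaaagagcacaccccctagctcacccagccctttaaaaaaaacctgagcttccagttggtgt
In the Gbp genes the ISRE core lay close to the start, beginning at base -53 in Gbp7, at -59 in Gbp2 and at -45 and -39 in Gbp3, where the matches overlap each other. Gbp7 also held gamma-activated sites from -106 and -87, and no such site was found in the windows of Gbp2 and Gbp3. B2m held its ISRE core from -139, and Ifit1 held cores from -104 and -85.

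**Figure D1:**
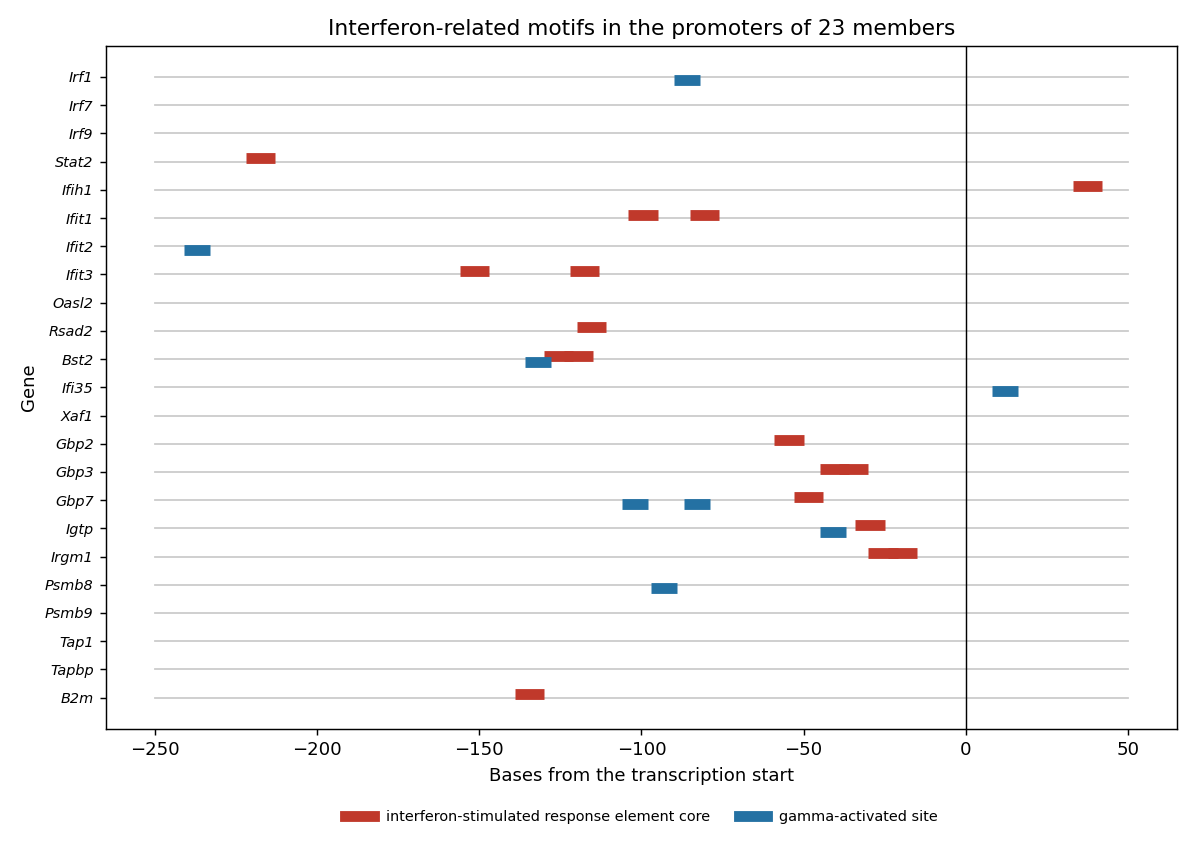
Positions of the ISRE core (red) and the gamma-activated site (blue) in the promoter windows of 23 members, in bases from the transcription start. The ISRE core is in 12 of the genes and the gamma-activated site in 7, and the matches of Ifih1 and Ifi35 lie after the start.

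The values are log2 signals, so a difference of 1 means a 2-fold change in signal, and signals of different genes cannot be set against each other. The median over all probe sets was log2 6.22. Mean signals of 29 members lay above it, while Stat2, Oasl2, Mx1, Mx2, Dhx58 and Trim14 lay below, where background makes differences smaller. Each gene was tested with limma on all 12 arrays, and a gene was called where its p-value, adjusted over the 18194 genes, was under 0.05. Each ± gives limma's standard error, and every group has n = 3 arrays. All 12 markers of skeletal muscle fibres had mean signals between 12.97 and 15.94, and array medians lay between 6.19 and 6.25. Ppargc1a, the targeted gene, did not read lower on knock-out arrays (0.53 ± 0.23 in young, adjusted p = 0.410, and 0.29 ± 0.23 in old muscle, adjusted p = 0.506). The deleted exons are not given in the sources used here, and a probe set outside them would check nothing. Genotypes are therefore those of the labels.

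Young wild-type array 1 stood apart from its replicates on these genes. It was the highest of its group for 29 of the 35 members, while it was the highest for 33.8% of all genes. The mean over the members, as log2 minus the young wild-type mean, was 0.24 on that array and -0.13 and -0.11 on the other 2. Markers of B and plasma cells scored 0.90 on it against -0.44 and -0.47, markers of T and NK cells 0.26 against -0.07 and -0.19, macrophage markers 0.25 against -0.14 and -0.12, and MHC class II genes 0.79 against -0.38 and -0.41. Fibroblast markers (0.38 against -0.21 and -0.17) and endothelial markers (0.23 against -0.15 and -0.08) were also highest on it, and adipocyte markers were lowest (-0.35 against 0.20 and 0.15). Mean signals over the 12 arrays lay below 6.22 for 8 of 12 T and NK cell markers and 4 of 6 B and plasma cell markers. On young wild-type array 1, however, Ms4a1 read 8.36 (4.84 and 5.04 on its replicates), Cd3d 7.49 (5.67 and 5.81) and Cd79b 7.24 (5.29 and 5.03). Of these lymphocyte markers only Cd8a, Gzma, Gzmb and Ncr1 were not highest on it within its group. The part of these cells in the members' values was not tested. The medians and numbers above 0 given for the members are given with and without this array where they change. Other counts, differences of single genes and values of other lists include it unless stated. The members as a whole varied more within groups than other genes did, with a median within-group SD of 0.20 against 0.15 over all genes. Ifi27l2a (SD 0.87) and Ifit1 (SD 0.40) varied most and Irf1 (SD 0.09) least. These SDs are pooled over the groups and include young wild-type array 1. The SD of the mean over the members was 0.21 among young wild-type arrays. It was 0.05 among young knock-out, 0.13 among old wild-type and 0.03 among old knock-out arrays.

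**Figure D2:**
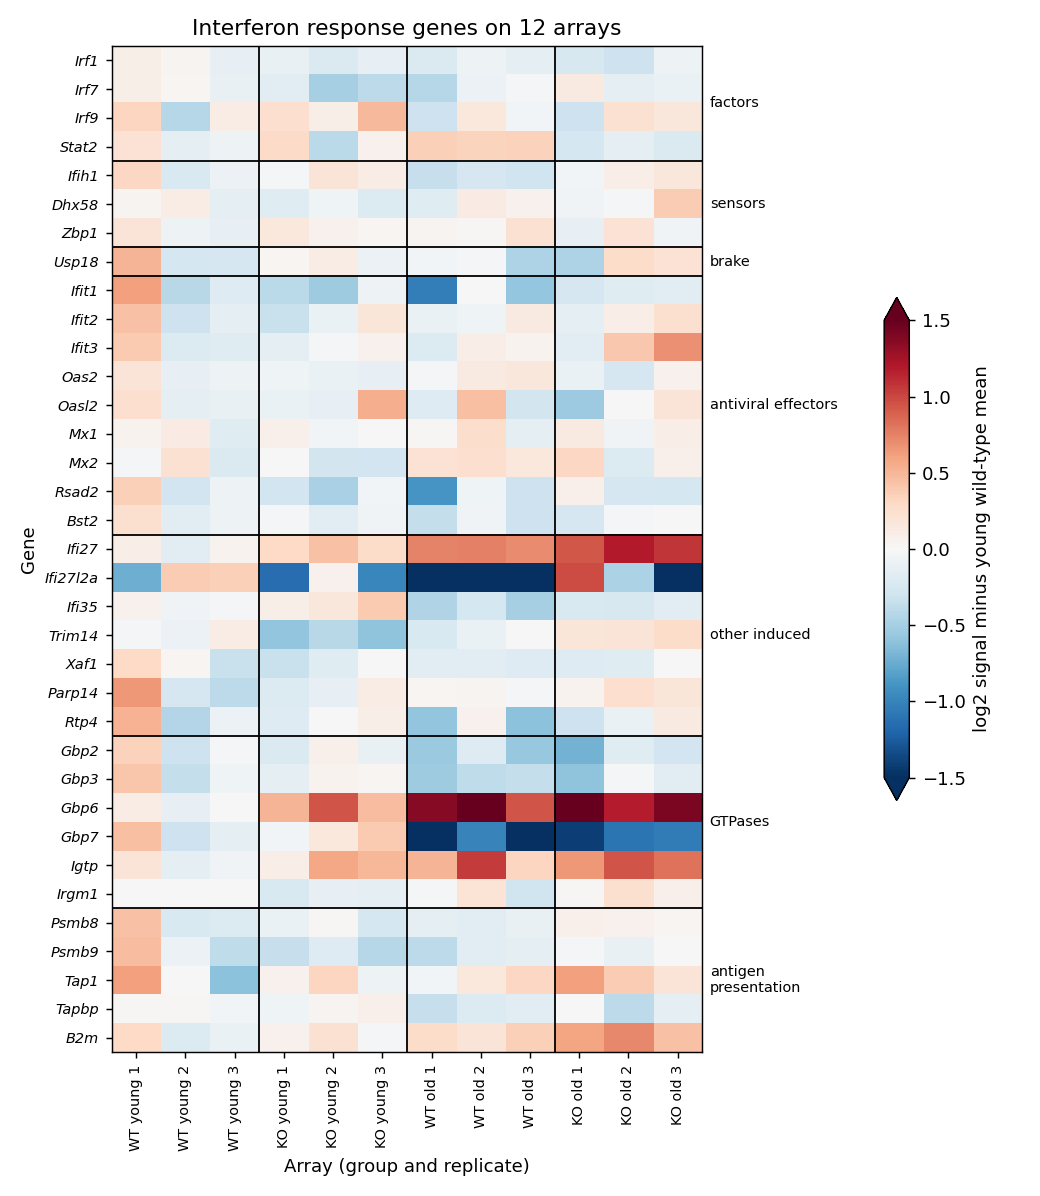
Signal of the 35 members (rows, by role) on the 12 arrays (columns, by group) as log2 minus the young wild-type mean; the colour scale ends at 1.5 in both directions. Young wild-type array 1 is red in most rows, and Ifi27, Gbp6, Igtp, Gbp7 and Ifi27l2a hold the strongest colours in old muscle.

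Age was the factor with which single members moved most clearly, and they moved in opposite directions. In wild-type muscle 2 members rose with age (1.65% of all genes) and 3 fell (1.97%), so 5 of 35 were called where 3.62% of all genes were. In knock-out muscle 4 rose (4.85% of all genes) and 2 fell (5.41%), so 6 of 35 were called where 10.3% of all genes were. Unadjusted p-values under 0.05 were found for 11 members in wild-type muscle (16.6% of all genes) and for 9 in knock-outs (24.9%). The share of members in knock-outs was thus near that of all genes. Young and old arrays did not overlap for 9 members in wild-type muscle, a share near that of all genes (26.2%). Of these 9, 4 were higher with age (12.8% of all genes) and 5 lower (13.5%). In knock-out muscle they did not overlap for 12 members (28.7%), 10 of them higher with age (13.8%) and 2 lower (14.9%). Ifi27, Gbp6, Gbp7 and Ifi35 were called in both. The age comparisons rest on different arrays, 6 in each, but share the estimate of the spread. The median of the 35 members was -0.11 in wild-type muscle (0.00 over all genes) and 0.13 in knock-out muscle (0.00 over all genes), with 12 of 35 (50.5% of all genes) and 20 of 35 (49.0%) above 0. Without young wild-type array 1 the median in wild-type muscle was 0.021, 19 of 35 members lay above 0 and 3 were called. In knock-out muscle the median was 0.021 without young knock-out array 1, 0.039 without young knock-out array 2, 0.057 without old knock-out array 3, 0.079 without old knock-out array 1 and 0.038 with the mean of probe sets. Without old knock-out array 1, 4 members were called there, and without young knock-out array 3, 3 members were. All 6 fibroblast markers also had differences below 0 with age in each genotype. Endothelial markers were split, with 7 of 9 below 0 in wild-type and 6 of 9 in knock-out muscle. Called lower were 2 of 9 endothelial and 1 of 6 fibroblast markers in wild-type animals (1.97% of all genes). In knock-outs 2 of 9 and 3 of 6 were called lower (5.41% of all genes), and none was called higher in either genotype. Their part in the members that fell was not tested.

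Ifi27 encodes a small interferon-induced membrane protein found in mitochondria and at the nuclear envelope. Its signal was 9.93, 9.67 and 9.87 on the young wild-type arrays, 10.13, 10.27 and 10.10 on the young knock-out arrays, 10.57, 10.58 and 10.53 on the old wild-type arrays and 10.76, 11.01 and 10.89 on the old knock-out arrays. The groups did not overlap at any step of this order. With age it rose 1.66-fold in wild-type muscle (0.73 ± 0.10, adjusted p = 0.00227) and 1.65-fold in knock-outs (0.72 ± 0.10, adjusted p = 0.00109). The knock-out minus wild-type differences of Ifi27 were 0.34 ± 0.10 in young (adjusted p = 0.223) and 0.33 ± 0.10 in old muscle (adjusted p = 0.105) and were not called. Its other probe set gave age differences of 0.52 and 0.61, both called over all probe sets (adjusted p = 0.0142 and 0.00305).

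Ifi27l2a, a relative of Ifi27 and its direct neighbour on chromosome 12, behaved differently. Its signal was 10.48, 11.60 and 11.57 on the young wild-type arrays and fell to 8.27, 8.95 and 9.27 on the old wild-type arrays, with no overlap. The fall was 5.22-fold (-2.38 ± 0.58, adjusted p = 0.0427), the largest difference of any member in the genotype and age comparisons. The young knock-out arrays read 10.07, 11.29 and 10.24 and the old knock-out arrays 12.19, 10.74 and 9.41, so the old knock-out arrays spanned both young groups. Old minus young was 0.25 ± 0.58 in knock-out muscle (adjusted p = 0.850, 95% interval -1.01 to 1.51), and knock-out minus wild-type in old muscle was 1.95 ± 0.58 (adjusted p = 0.110), with groups that did not overlap. The difference between the age effects of the genotypes was 2.63 ± 0.82 and was not called (adjusted p = 0.871). Adipocyte markers, 6 of 8 listed being measured, scored -0.35, 0.20 and 0.15 on the young wild-type arrays, -0.96, -1.10 and -0.44 on the old wild-type arrays, -0.47, 0.08 and -0.71 on the young knock-out arrays and 1.56, 0.99 and -1.05 on the old knock-out arrays. In each of the 4 groups the array with the highest adipocyte score was also the one with the highest Ifi27l2a signal, and the part of adipocytes in the values was not tested. The call in wild-type muscle ended without any 1 of 9 arrays (each young and old wild-type array, young knock-out 1 and 3, and old knock-out 2, adjusted p from 0.0521 to 0.160) and with trended and robust variances (0.103), and without old knock-out array 3 the genotype difference in old muscle was called (2.64, adjusted p = 0.0187). Knock-out arrays do not enter the wild-type difference, and omitting them alters only the spread estimate and the adjustment.

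The guanylate-binding proteins are large GTPases that coat pathogen vacuoles and bacteria. Gbp6 read 9.23, 9.0 and 9.13 on the young wild-type arrays and 10.49, 10.62 and 10.06 on the old wild-type arrays. It thus rose 2.41-fold with age (1.27 ± 0.21, adjusted p = 0.00669), without overlap. In knock-out muscle it went from 9.62, 10.06 and 9.58 to 11.12, 10.30 and 10.53, a 1.86-fold rise (0.90 ± 0.21, adjusted p = 0.0182). That call ended without young knock-out array 1 (0.0593) or 3 (0.0768) or old knock-out array 1 (0.0511). Its other probe set rose too, by 1.82 and 1.47 (adjusted p = 0.00891 and 0.0125 over all probe sets). The young knock-out arrays all lay above the young wild-type arrays (0.63 ± 0.21, adjusted p = 0.279, not called).

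Gbp7 moved the other way. It read 10.01, 9.25 and 9.42 on the young wild-type arrays and 8.04, 8.56 and 7.98 on the old wild-type arrays, a 2.58-fold fall (-1.37 ± 0.21, adjusted p = 0.00477). The young knock-out arrays read 9.52, 9.72 and 9.96 and the old knock-out arrays 8.15, 8.46 and 8.52, a 2.56-fold fall (-1.36 ± 0.21, adjusted p = 0.00240). Young and old arrays did not overlap in either genotype, and the second probe set gave -1.19 and -1.18, both called. Its neighbours in the cluster on chromosome 3 were lower with age by less and were not called: Gbp2 gave -0.44 ± 0.18 and Gbp3 -0.42 ± 0.18 in wild-type muscle (adjusted p = 0.233 and 0.266), and -0.31 and -0.24 in knock-out muscle. The wild-type differences of Gbp2 and Gbp3 include young wild-type array 1, which was high for both. Gbp2 read 8.16 on it (7.50 and 7.78 on its replicates) and Gbp3 8.04 (7.27 and 7.57). Members of the Gbp family have closely similar sequences, so a probe set named for one may also read another.

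The immunity-related GTPases act on vacuoles as well. Igtp read 8.79, 8.45 and 8.55 on the young wild-type arrays and 9.11, 9.64 and 8.92 on the old wild-type arrays. The difference of 0.63 ± 0.18 did not pass (adjusted p = 0.0853), although the groups did not overlap, and in knock-out muscle it was 0.41 ± 0.18 (adjusted p = 0.186). Irgm1, which regulates the other GTPases of its family, gave age differences of -0.04 ± 0.11 in wild-types and 0.28 ± 0.11 in knock-outs (adjusted p = 0.923 and 0.156). Of the 6 GTPases, 1 therefore rose, 1 fell and 4 did not pass in each genotype.

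**Figure D3:**
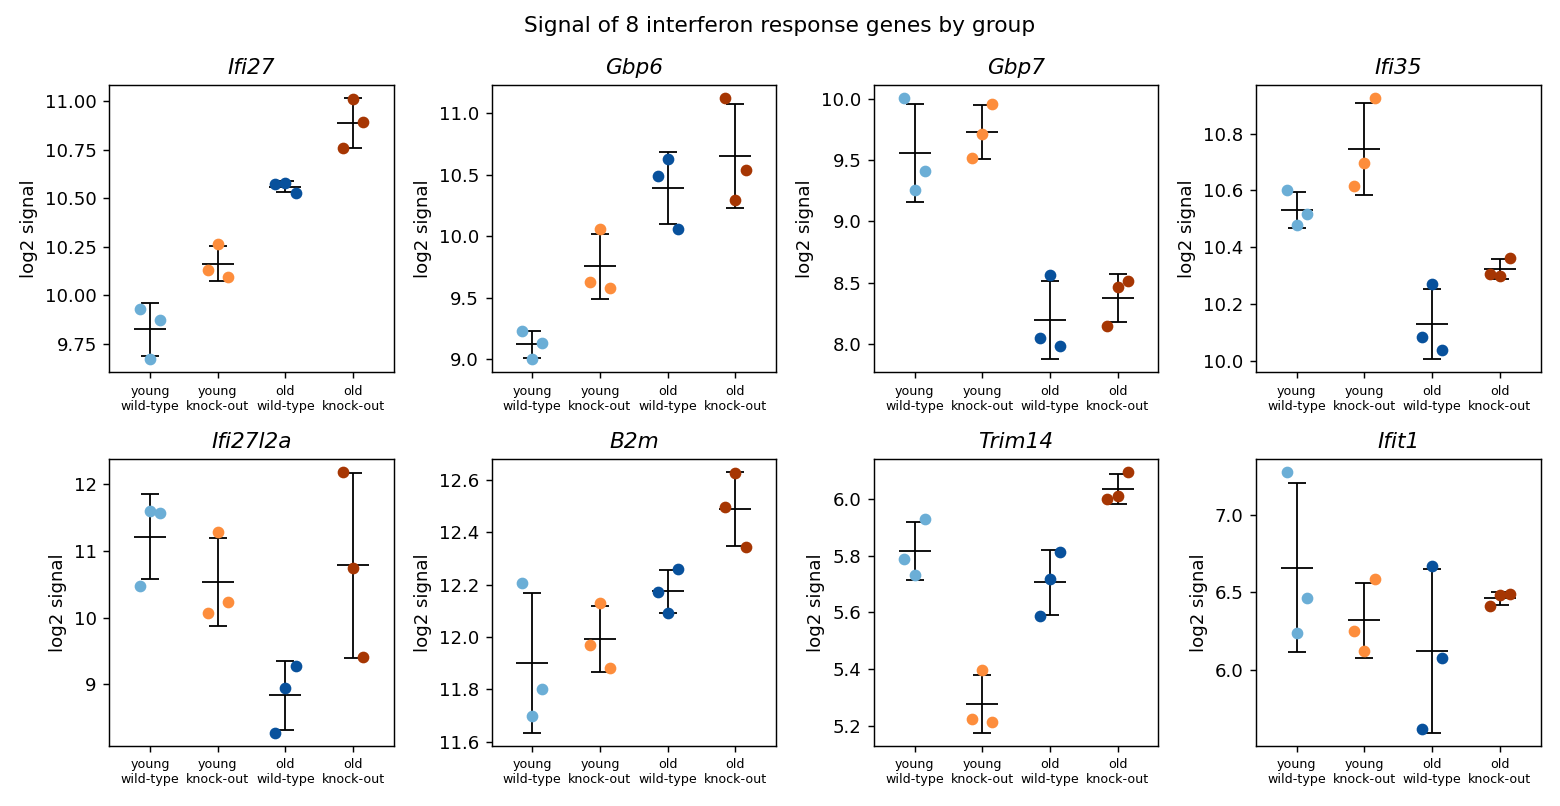
Log2 signal of 8 members in the 4 groups; points are arrays, long bars the mean and short bars the SD (n = 3), and each panel has its own axis. Ifi27 and Gbp6 are higher and Gbp7 and Ifi35 lower in old muscle of both genotypes, while Ifit1 overlaps between groups.

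Ifi35, which encodes an interferon-induced leucine zipper protein, was lower in old muscle. It read 10.60, 10.48 and 10.52 on the young wild-type arrays, 10.08, 10.27 and 10.04 on the old wild-type arrays, 10.62, 10.70 and 10.93 on the young knock-out arrays and 10.31, 10.30 and 10.36 on the old knock-out arrays. The fall was 1.32-fold in wild-type muscle (-0.40 ± 0.10, adjusted p = 0.0416) and 1.34-fold in knock-outs (-0.42 ± 0.10, adjusted p = 0.0181), again without overlap. Its other 2 probe sets gave -0.06 and -0.32 in wild-types and -0.12 and -0.41 in knock-outs, and none of these was called. In wild-type muscle the Ifi35 call ended without any 1 of 9 arrays (each young and old wild-type array, young knock-out 2, and old knock-out 2 and 3, adjusted p from 0.0512 to 0.156), and in knock-out muscle without young knock-out array 3 (0.0768). With the mean of its probe sets it was not called in either (0.227 and 0.0703). Knock-out arrays enter the wild-type comparison only through the shared spread estimate and the adjustment.

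Trim14, whose product is an adaptor on mitochondria in RNA sensing, was the member with a call in both a genotype and an age comparison. It read 5.79, 5.73 and 5.93 on the young wild-type arrays and 5.22, 5.40 and 5.22 on the young knock-out arrays, and so was 1.45-fold lower in young knock-out muscle (-0.54 ± 0.09, adjusted p = 0.0402). It was the 1 member of 35 called in that comparison, in which 0.192% of all genes were called, 0.0385% higher and 0.154% lower in knock-out muscle. The old knock-out arrays read 6.00, 6.01 and 6.09, a 1.69-fold rise with age (0.75 ± 0.09, adjusted p = 0.000716). This rise and the genotype difference in young muscle share the young knock-out arrays, so they are not separate findings. The old wild-type arrays read 5.59, 5.72 and 5.81 and did not differ in a way that passed from the young ones (-0.11, adjusted p = 0.622). The difference between the age effects was 0.86 ± 0.13, with the smallest p of any member in that test, and was not called (adjusted p = 0.236); without old knock-out array 3 it was 0.83 (adjusted p = 0.0436). All of these signals lie below 6.22, and the other Trim14 probe set, dimmer still with a mean of 4.37, gave a genotype difference of -0.13 in young muscle and an age difference of 0.12 in knock-outs. In old muscle its genotype difference was -0.29, where the brighter one gave 0.33 (adjusted p = 0.0936). The call in young muscle ended without any 1 of 10 arrays (all but old knock-out 1 and 3, adjusted p from 0.0604 to 0.207), and also with arrays centred on their medians (0.0567), quantile normalization again (0.0531) or the mean of the probe sets (0.117). Old arrays do not enter the young difference, and omitting them alters only the spread estimate and the adjustment. The rise with age in knock-out muscle was called in each of the 19 settings run for Trim14.

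Members that present antigen include B2m, the light chain of MHC class I, the immunoproteasome subunits Psmb8 and Psmb9, the peptide transporter subunit Tap1 and the loading factor Tapbp. B2m read 11.97, 12.13 and 11.88 on the young knock-out arrays and 12.50, 12.63 and 12.34 on the old knock-out arrays, a 1.41-fold rise with no overlap (0.50 ± 0.13, adjusted p = 0.0317). Its other probe set gave 0.54. The B2m call ended without young knock-out array 1 (0.0801) or 3 (0.118) or old knock-out array 1 (0.0734) or 2 (0.0897). In wild-type muscle B2m went from 12.20, 11.70 and 11.80 to 12.17, 12.09 and 12.26, which overlapped (0.27 ± 0.13, adjusted p = 0.323). The overlap came from young wild-type array 1 (12.20), and the other young wild-type arrays lay below all old ones. With that array included, the difference between the age effects was 0.22 (adjusted p = 0.888). Psmb8, Psmb9, Tap1 and Tapbp were not called in any comparison. Tap1, Psmb8 and Psmb9, which adjoin each other on chromosome 17, gave 0.30, 0.17 and 0.28 with age in knock-out muscle and 0.14, -0.14 and -0.23 in wild-type muscle. The wild-type values lean on young wild-type array 1, the highest of its group for each of these genes. Tap1 read 7.46 on it (6.85 and 6.24 on its replicates), Psmb8 8.15 (7.49 and 7.52) and Psmb9 8.05 (7.50 and 7.21). The contrast in sign between the genotypes is therefore not secure. Macrophage marker scores were also higher in old knock-out muscle, at 0.67, 0.82 and 1.15 against -0.08, 0.50 and 0.51 on the young knock-out arrays. Of the 13 markers 1 was called (Cd68), and 11 had mean signals above 6.22. Cd68 weighs most in these scores, with 10.25, 8.67 and 9.05 on the old and 5.98, 6.68 and 6.69 on the young knock-out arrays. Scores without it were not computed. The median difference of the list was 0.39, with 12 of 13 above 0 (49.0% of all genes). Groups were apart for 4, all higher in old muscle (13.8% of all genes). The part of macrophages in the B2m difference was not tested.

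The signalling factors showed no call in any comparison. Stat2, a subunit of the complex that binds the ISRE, read 5.67, 5.65 and 5.66 on the old wild-type arrays and 5.05, 5.18 and 5.10 on the old knock-out arrays. These groups did not overlap, and the difference of -0.55 ± 0.15 did not pass (adjusted p = 0.0915), except without young knock-out array 2, where it was called (0.0457). Its second probe set gave -0.30. Irf7, the factor that amplifies type I interferon production, read 7.11, 7.05 and 6.91 on the young wild-type and 6.85, 6.52 and 6.63 on the young knock-out arrays (-0.35 ± 0.13, adjusted p = 0.330), and the difference between its genotype effects was 0.50 ± 0.18 (adjusted p = 0.871). For Irf1 the genotype and age differences lay between -0.15 and -0.06. Irf9 gave 0.27, 0.09, -0.06 and -0.24 for genotype in young, genotype in old, age in wild-type and age in knock-out muscle.

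The antiviral effectors showed no call either. Of 9 measured, which block viral RNA (Ifit1, Ifit2, Ifit3, Oas2, Oasl2), nucleocapsids (Mx1, Mx2), RNA synthesis (Rsad2) or release (Bst2), none passed in any comparison, none had groups apart in any of the 4, and the smallest adjusted p was 0.324. Ifit1 read 7.28, 6.24 and 6.46 on the young wild-type arrays, 6.25, 6.12 and 6.59 on the young knock-out arrays, 5.62, 6.67 and 6.08 on the old wild-type arrays and 6.41, 6.48 and 6.49 on the old knock-out arrays. All groups overlapped, and the 95% interval of old minus young in wild-type muscle ran from -1.13 to 0.06. The interval for Rsad2 in that comparison was -0.88 to 0.04. A p that misses the threshold does not show that the values did not differ. The sensors Ifih1 and Dhx58 of viral RNA and Zbp1 of nucleic acids in the Z form were not called. Ifih1 had groups apart in old muscle, at 7.38, 7.48 and 7.43 in wild-type and 7.68, 7.82 and 7.89 in knock-out (0.37 ± 0.13, adjusted p = 0.146). Usp18, which takes ISG15 off proteins and damps the receptor, gave genotype and age differences between -0.17 and 0.18. The remaining induced genes Xaf1, Parp14 and Rtp4 were not called in any comparison, with genotype and age differences between -0.38 and 0.29.

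Between genotypes, the members of old muscle lay mostly on the knock-out side without passing. In old muscle 29 of 35 differences were above 0 (46.1% of all genes), with a median of 0.16 (-0.02 over all genes). None was called with limma, where 1.32% of all genes were (0.473% higher and 0.852% lower in knock-out muscle), while 6 of 35 had an unadjusted p under 0.05 (19.3% of all genes). The groups did not overlap for 10 members (23.8% of all genes), with knock-out higher for 9 (10.6%), namely Ifih1, Ifi27, Ifi27l2a, Ifi35, Psmb8, Psmb9, B2m, Trim14 and Parp14, and lower for Stat2 (13.2%). Old wild-type array 1 was the lowest of its group for 17 members, and without it 27 of 35 were above 0 with a median of 0.11. Old knock-out array 1 was the lowest of its group for 21 members, and without it 28 of 35 were above 0 with a median of 0.19. The macrophage score on the old wild-type arrays was -0.28, 0.70 and -0.07, below the old knock-out arrays on 2 of 3 and within their range on the third, and Cd68 was higher in old knock-out muscle by 2.17 ± 0.41 (adjusted p = 0.0256). Adipocyte markers moved further in this comparison, with 6 of 6 differences above 0, a median of 1.40, 5 of 6 at an unadjusted p under 0.05 and none called. Their scores were 1.56, 0.99 and -1.05 on the old knock-out and -0.96, -1.10 and -0.44 on the old wild-type arrays. Old knock-out array 3 thus lay within the wild-type range, and the groups overlapped for every adipocyte marker. The part of either cell type in the members' differences was not tested. In young muscle 14 of 35 differences were above 0 (47.9% of all genes) with a median of -0.04, 5 members had an unadjusted p under 0.05 (11.3% of all genes), and the groups did not overlap for 6 members (20.8%), 3 higher (10.7%) and 3 lower (10.1%) in knock-out muscle. Without young wild-type array 1, 24 of 35 were above 0, the median was 0.10 and no member was called. The difference of the genotype effects was above 0 for 26 of 35 members (48.2% of all genes), and for 18 of 35 without that array. None of these was called by limma, as was true of all 18194 genes, and 4 members had an unadjusted p under 0.05 (5.45% of all genes).

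**Figure D4:**
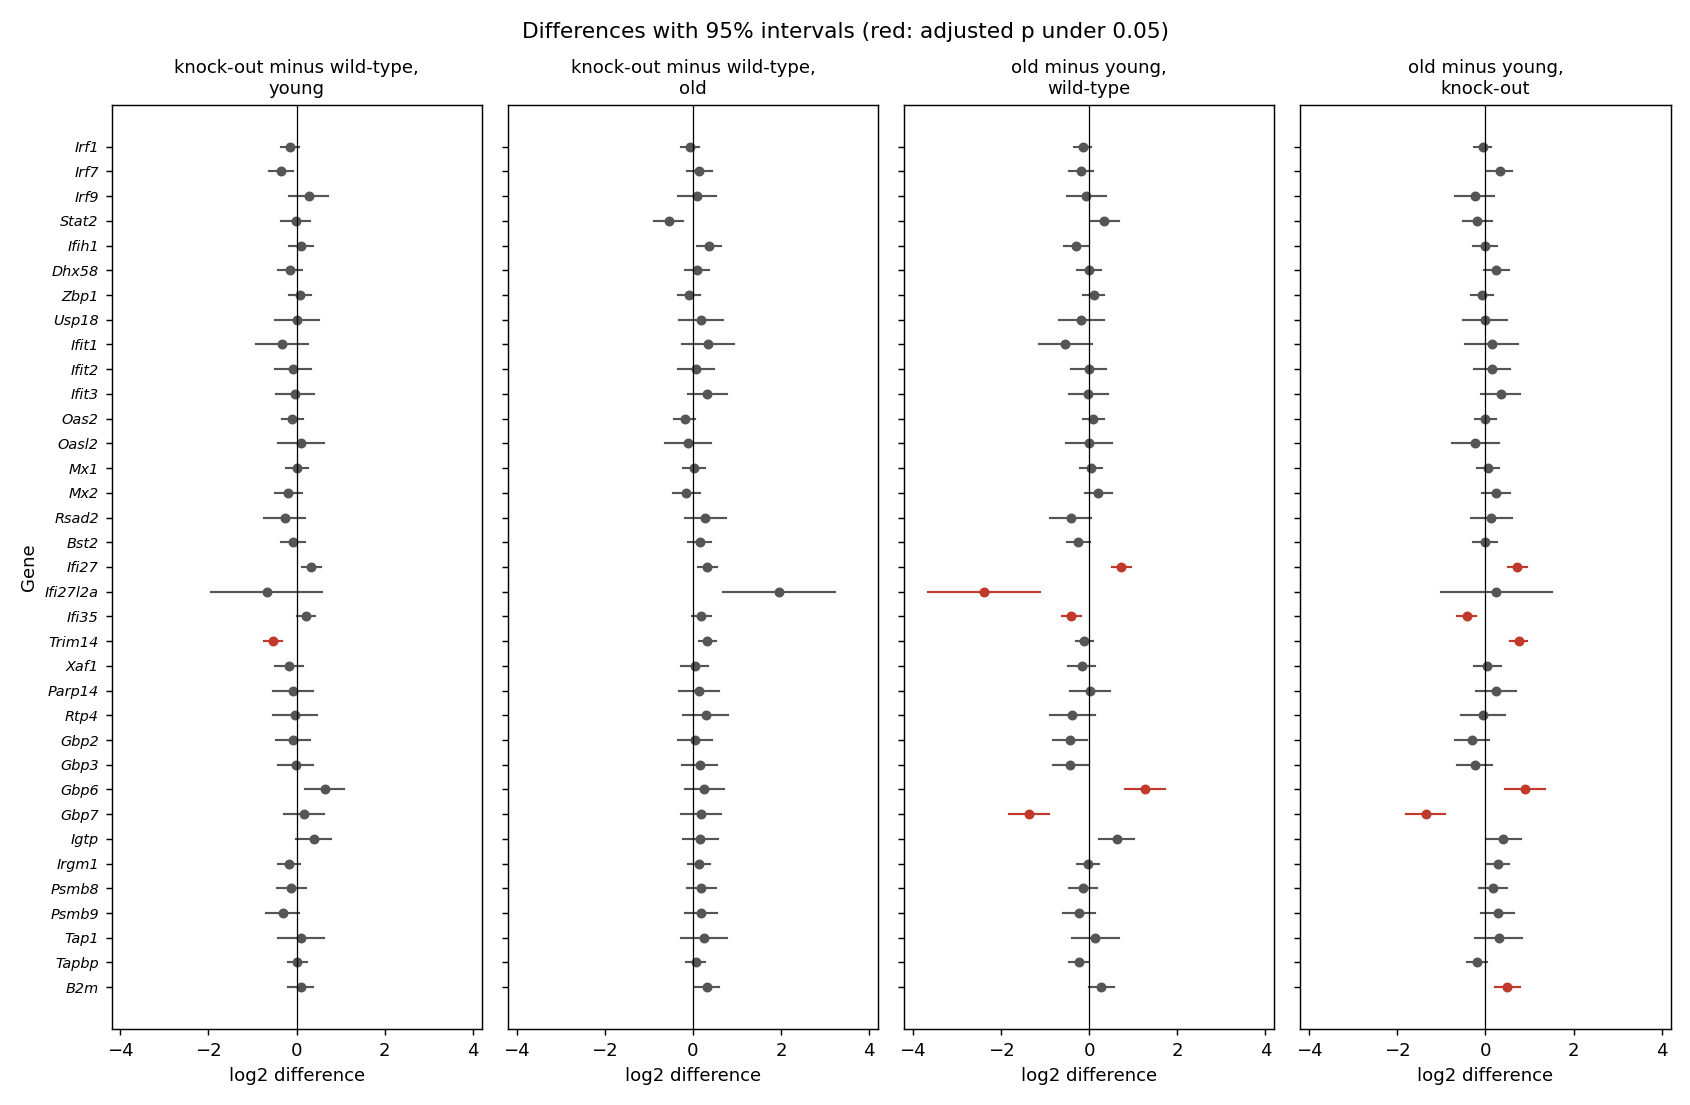
Log2 differences of the 35 members in the 4 comparisons with 95% intervals from limma; red marks an adjusted p under 0.05 over 18194 genes. Red intervals appear for 1 member in young genotype, 0 in old genotype, 5 in wild-type age and 6 in knock-out age, and they lie on both sides of 0 in the age panels.

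The rest of the pathway was read on 101 measured genes of 121 listed, none of them a member. These lists too were drawn up with earlier results known. With age, 2 rose and 2 fell in wild-type muscle (3.62% of all genes were called) and 5 rose and 3 fell in knock-out muscle (10.3% of all genes). None was called between genotypes with limma, where 10 of 101 in young (11.3% of all genes) and 12 of 101 in old muscle (19.3%) had an unadjusted p under 0.05. These shares are near or below those of all genes. Their median genotype difference was -0.07 in young and 0.06 in old muscle, and their median age difference was -0.02 in wild-types and 0.06 in knock-outs. The medians for young genotype and wild-type age include young wild-type array 1 and were not taken without it. On that array 40 other interferon-stimulated genes scored 0.24, against -0.14 and -0.10 on its replicates. It scored highest of its group for each pathway list except the interferon genes, where it scored lowest. Of the interferon genes themselves 7 were measured, and all 7 had mean signals under 6.22 and no call. The 14 sensing and induction genes also had none.

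Among 10 receptor and kinase genes, Ifnar2, a chain of the type I receptor, was lower in old muscle. It read 8.05, 7.70 and 7.90 on the young wild-type and 7.15, 7.39 and 6.86 on the old wild-type arrays (-0.75 ± 0.18, adjusted p = 0.0387), and gave -0.65 ± 0.18 in knock-out muscle (adjusted p = 0.0377). With the mean of its probe sets these were -0.39 and -0.27 and not called, and the calls ended without 7 and 6 of the 12 arrays in turn (adjusted p from 0.0509 to 0.149). Jak2 fell in knock-out muscle (-0.55 ± 0.13, adjusted p = 0.0200), a call that ended without young knock-out array 2 (0.0852) or old knock-out array 1 (0.0605). Of 40 other interferon-stimulated genes, Samhd1, which breaks down deoxynucleotides, rose with age in knock-out muscle (0.86 ± 0.14, adjusted p = 0.00295) and was called in each of 20 settings. Slfn5 fell there (-0.63 ± 0.14, adjusted p = 0.0166), a call lost without young knock-out array 1 (0.0522) or 3 (0.0619). The other 38 were not called. Isg20, an antiviral exonuclease gene counted here among 9 negative regulators, none of the others being called, rose with age in knock-out muscle by 1.05 ± 0.27 (adjusted p = 0.0295). That call ended without any 1 young knock-out array or old knock-out array 1 (0.0615 to 0.110).

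Among 10 further genes of class I presentation, 3 rose with age in knock-out muscle, where 4.85% of all genes were called higher, and 7 were not called. H2-D1, a class I heavy chain, rose by 0.83 ± 0.22 (adjusted p = 0.0353), and the chaperones Calr and Canx by 0.40 ± 0.11 and 0.37 ± 0.09 (adjusted p = 0.0427 and 0.0223). The H2-D1 call ended with the mean of its probe sets (0.0756), with array weights (0.0677) and without young knock-out array 1 (0.0963) or 3 (0.125) or old knock-out array 1 (0.120) or 2 (0.0627), that of Canx without 5 arrays (0.0583 to 0.0676) and that of Calr without 10 (0.0505 to 0.156) and with quantile normalization again (0.0602). The 6 class II genes had a median of 0.39 in this comparison and no call (smallest adjusted p = 0.305). Of 5 chemokines and ligands, Cxcl10 rose and Cxcl9 fell with age in wild-type muscle, although both recruit T cells through the same receptor. Cxcl10 read 5.39, 5.21 and 5.18 on the young and 6.84, 6.95 and 6.13 on the old wild-type arrays (1.38 ± 0.29, adjusted p = 0.0241), while Cxcl9 gave -0.87 ± 0.20 (adjusted p = 0.0342) and Cxcl11 0.43 ± 0.11 (adjusted p = 0.0439). The mean signals of Cxcl10 and Cxcl11 lay under 6.22. These 3 calls ended without 5, 6 and 8 of the 12 arrays in turn, with adjusted p up to 0.0980, 0.134 and 0.166. With the mean of their probe sets Cxcl9 (0.0961) and Cxcl11 (0.308) were not called, and Cxcl11 was also lost with quantile normalization again (0.0504) and trended variances (0.0553).

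**Figure D5:**
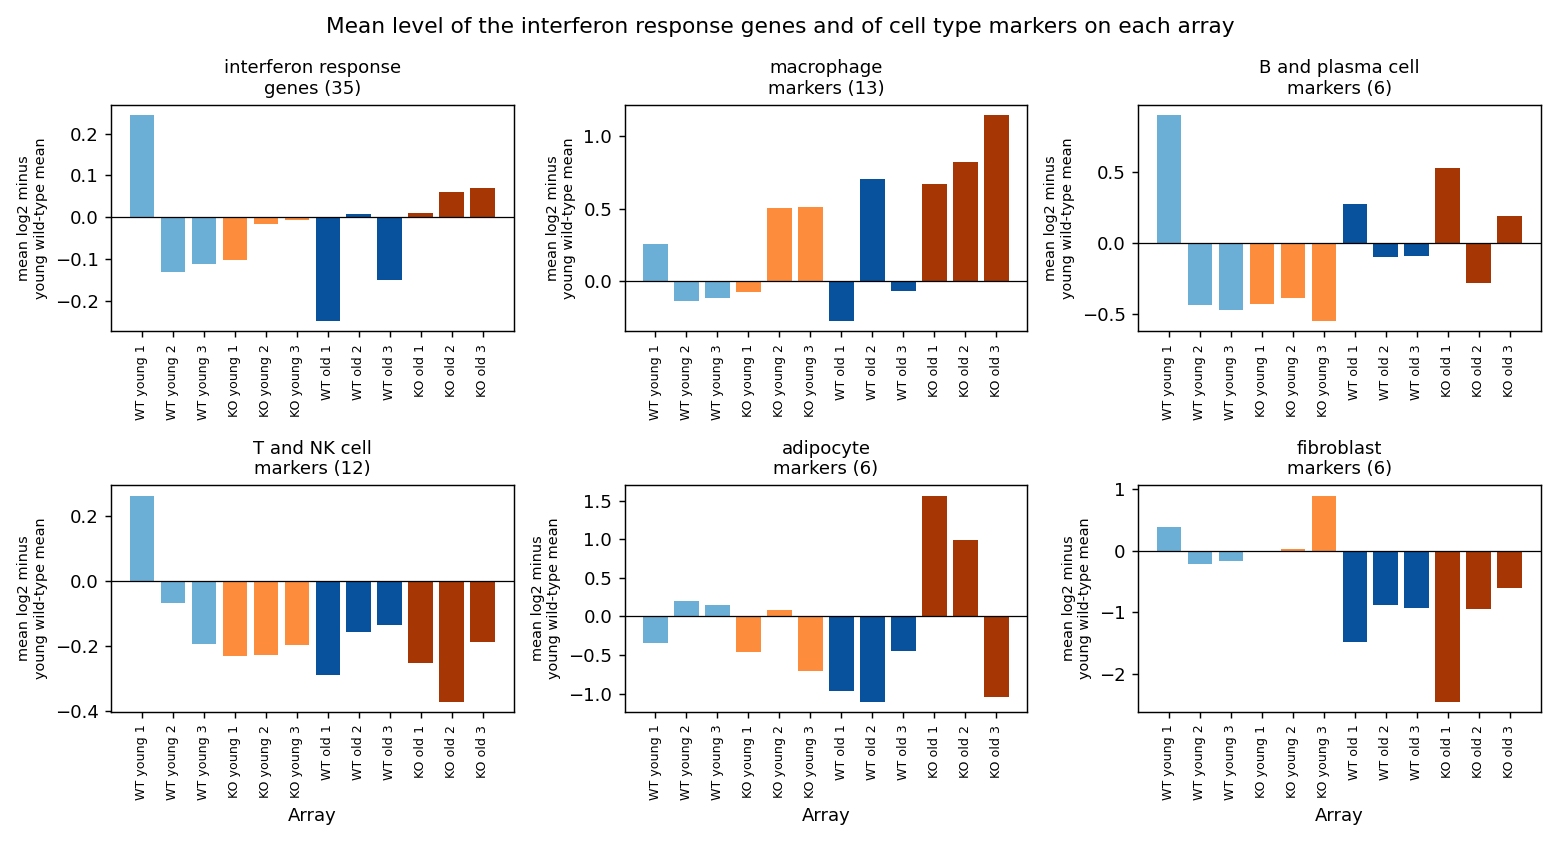
Mean level of the 35 members and of 5 cell type marker lists on each array, as log2 minus the young wild-type mean (number of genes in brackets; bars start at 0 and each panel has its own axis). Young wild-type array 1 has the highest member score, 0.24, and the highest B and plasma cell score, 0.90, and the macrophage scores of the old knock-out arrays lie between 0.67 and 1.15.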

How the data were processed

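Total RNA was extracted with Trizol, turned into biotin-labelled cRNA and hybridised to Affymetrix arrays, per the labels' protocols. The authors deposited log2 signals for 45101 probe sets on 12 arrays. The submitters' processing notes name RMA and affy without versions, and no further normalization was applied here. RMA equalises signal distributions between arrays, so a change shared by most genes would not be visible. Of the probe sets, 34958 named 1 gene, and each of the 18194 genes was tested with its brightest one (17 of 35 members had more than 1). Gene names come from the platform annotation, and 11 of the members' probe sets have IDs ending in _a_at, _s_at or _x_at, which mark probes that match several transcripts.

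A model with 4 group means was fitted in R 4.3.3 with limma 3.58.1 (lmFit, eBayes, 8 residual and 4.15 prior degrees of freedom), with Benjamini-Hochberg adjustment over all genes and a threshold of 0.05. The procedure was tested on simulated data. Comparisons were knock-out minus wild-type at each age, old minus young in each genotype, and the difference of the genotype effects. The members and lists were chosen with earlier results of these data known, so lists are described by counts and medians without a test. Members are given array by array where they pass, or are among the 4 smallest p-values of a comparison; pathway genes are named from the 4 smallest p-values of a list. Ifit1, Igtp, Ifih1 and the other members given by differences alone were named outside this rule, after their values were seen. Array number limits the precision. Promoters came from RefSeq (GRCm38.p6), matched by symbol.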

Additional observations from a re-analysis of the deposited data

How the results depend on the processing

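Alternatives were averaging all probe sets of a gene, keeping genes at or above the median signal, centring arrays on their medians, a second quantile normalization, array weights, robust and trended variances, a threshold of 0.10, and omission of every array in turn. Omitting young wild-type array 1 and old knock-out array 1 together was chosen after seeing the data. No paired analysis was possible because the labels carry no replicate numbers that pair arrays. None of 35 named differences changed direction in 692 refits, of which 568 kept the call or its absence, 117 lost the call and 7 gained one. Much of this was fixed in advance. Omitting an array outside a comparison leaves its difference unchanged and alters only the spread estimate and the adjustment. The 0.10 threshold and the trended variances also leave differences unchanged, and a looser threshold cannot lose a call. The named differences were also picked by their p-values in these same data. Ifi27 and Gbp7 in both age comparisons, Gbp6 in wild-type muscle and Trim14 and Samhd1 with age in knock-out muscle were called in every setting that held them.

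The number of members called for genotype in young muscle was 1, and 0 with the mean of probe sets, brighter genes alone (29 members), centred arrays or quantile normalization, and 3 with array weights, where 1019 genes were called instead of 35. For genotype in old muscle it was 0, and 2 at an adjusted p of 0.10. For age in wild-type muscle it was 5, and 8 with array weights (2451 genes instead of 659). Leaving out 1 array gave 0 to 1, 0 to 1, 3 to 5, 3 to 6 and 0 to 1 members for genotype in young, genotype in old, age in wild-type, age in knock-out muscle and the interaction. The members' median for genotype in young muscle ran from -0.13 to 0.10 when 1 array was left out and that for age in wild-type muscle from -0.18 to 0.021, both highest without young wild-type array 1. The medians for genotype in old muscle (0.11 to 0.22) and age in knock-out muscle (0.021 to 0.13) stayed above 0. With both named arrays left out the first 2 medians were 0.10 and 0.021. That setting also ended the calls of Ifi35 (adjusted p = 0.0943) and Ifnar2 (0.0772) with age in wild-type muscle, and of Gbp6 (0.0585), Jak2 (0.0683), Isg20 (0.0918), Calr (0.0819) and Canx (0.0710) with age in knock-out muscle. Signals below the array median limit what can be read for Trim14, Stat2, Oasl2, Mx1, Mx2 and Dhx58.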
